A study of Ovis aries with 23 samples.

Results

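DCT, the gene of dopachrome tautomerase (ENSOARG00000000618), was followed sample by sample in RNA-seq counts of the sheep pars tuberalis (PT). It is 1 of the 25197 genes counted in each of 23 samples. DCT was chosen by its measured values in these same samples, as a gene that peaked after 7 days of long photoperiods (LPs), so its levels and fold changes are given as a description with no test. The tissue came from neutered male sheep of the Scottish blackface breed, and the series compares 4 groups. The SP group (5 samples) was on short photoperiods (SPs), with 8 hr of light and 16 hr of dark. The groups LP day 1, LP day 7, and LP day 28 (6 samples each) had been moved to LPs, in which light lasted 16 hr and dark 8 hr, for 1, 7, or 28 days. The labels give neither the age of the sheep nor the hour of sampling. Each sample was also described by its CRY1 state, which is CRY1 expression above or below 80 CPM (counts scaled to a common library total).

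Dopachrome tautomerase, also called tyrosinase-related protein 2, is an enzyme of melanin synthesis. It works in the melanosome, where it turns dopachrome into a carboxylated indole that is then built into eumelanin. Tyrosinase (TYR) and TYRP1 are the other members of its enzyme family, and DCT is commonly used as a marker of melanoblasts and melanocytes, which descend from the neural crest. The PT is the part of the pituitary that reads day length from melatonin, and its thyrotrophs secrete a thyrotropin that acts on the neighboring hypothalamus.

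Libraries held 307952 to 4413929 counts, with a median of 3332320. The shallowest was LP day 1 sample 4, where 3 counts, taken as the detection limit, were worth 8.90 CPM. Elsewhere this limit was at most 1.52 CPM. Marker genes of the PT and of adjacent tissue were read in the samples. The 5 PT thyrotroph markers CGA, TSHB, EYA3, CHGA, and MTNR1A summed to between 6727 and 15090 CPM per sample. Hormone genes of the adjacent pars distalis were also present, and PRL, GH1, POU1F1, POMC, LHB, and FSHB summed to between 34990 and 272700 CPM. Most of the thyrotroph sum came from CGA and CHGA. The paper also describes thyrotrophs, and cells that use CHGA, in the pars distalis, so that sum cannot tell the 2 tissues apart. LP day 1 samples 3 and 4 had the lowest chi-square per gene of any pair within a group, 1.14 (a value of 1 being counting noise alone). It was above counting noise (p = 2.8e-28, chi-square test). The next lowest pairs also held the shallow sample 4, at 1.75 with sample 6 and 3.37 with sample 1, against 5.62 and 7.16 with samples 5 and 2. The much deeper sample 3 had the same order, at 4.52, 14.9, 25.7, and 40.9 with samples 6, 1, 5, and 2. Whether samples 3 and 4 came from separate animals cannot be told from these values, and the p-value does not show it. Samples 3 and 4 were kept as separate samples, so the LP day 1 means, SDs, and SEs count both. With the 2 summed, the DCT log2 fold change between SP and LP day 1 was 1.29 (SE 0.47).

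On SPs, DCT stood at 11.7, 1.69, 13.6, 5.83, and 22.9 CPM in samples 1 to 5, from 44, 5, 47, 18, and 81 counts. At LP day 1, DCT was at 15.5, 32.8, 22.2, 32.6, 53.9, and 13.2 CPM in samples 1 to 6. Of these, the value of sample 4 rested on 11 counts, with a 95% counting interval of 16.3 to 58.4 CPM. DCT was thus low but detected in all 11 of these libraries, and 3 of the 6 LP day 1 samples lay within the SP range. At LP day 7, the samples stood at 222, 262, 160, 191, 241, and 338 CPM, from 531 to 985 counts. At LP day 28, DCT had values of 54.1, 85.2, 66.8, 110.0, 49.9, and 86.1 CPM, from 103 to 327 counts. Every LP day 7 sample was above every sample of the other 3 groups, and every LP day 28 sample was above every SP sample.

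**Figure D1:**
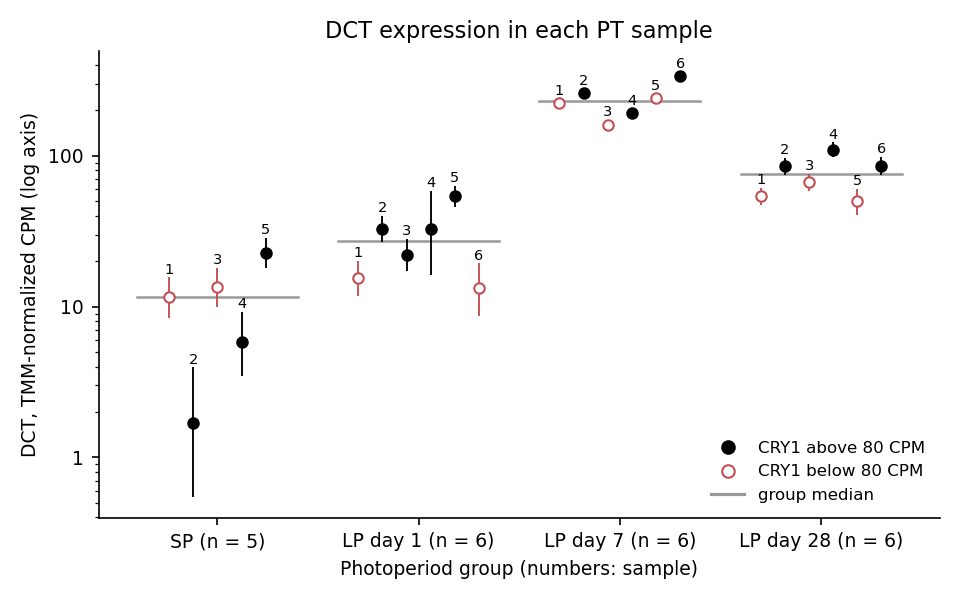
DCT expression in TMM-normalized CPM (y axis, log scale) in the 23 PT samples by photoperiod group (x axis; the number above each point is the sample), with vertical bars for the 95% counting interval and gray lines for group medians. All 6 LP day 7 samples lie between 160 and 338 CPM, above the other 17 samples, and filled and open points mark CRY1 above and below 80 CPM.

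Mean DCT expression on SPs was 11.1 ± 8.07 CPM (SD, n = 5). For the LP groups, each given as mean and SD of 6 samples, it was 28.4 ± 15.0 CPM on day 1, 236 ± 61.8 CPM on day 7, and 75.4 ± 22.8 CPM on day 28. Ordered by level, the neighbors SP and LP day 1 overlapped. LP day 1 and LP day 28 overlapped by a single pair of samples, LP day 1 sample 5 (53.9 CPM) and LP day 28 sample 5 (49.9 CPM). LP day 28 and LP day 7 did not overlap. The LP day 7 mean was 21.2-fold the SP mean and 8.31-fold the LP day 1 mean. By LP day 28 the mean stood at 32.0% of its LP day 7 level, which was still 6.78-fold the SP mean. Since each library holds RNA of a piece of tissue, more DCT-expressing cells and more DCT RNA per cell cannot be told apart.

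The fitted log2 fold changes describe the same course. DCT was higher than on SPs by 1.30 (SE 0.45) after 1 day of LPs, by 4.37 (SE 0.37) after 7 days, and by 2.73 (SE 0.35) after 28 days. From LP day 1 to LP day 7 the log2 fold change was 3.07 (SE 0.28), and from LP day 1 to LP day 28 it was 1.44 (SE 0.27). Between LP day 7 and LP day 28 it was -1.64 (SE 0.19). Ranked by rise, DCT was number 1 of the 15030 genes tested between SP and LP day 7, number 5 of 14897 between LP days 1 and 7, and number 11 of 14929 between SP and LP day 28. By fall between LP days 7 and 28, it was number 24 of 14890. These comparisons share groups of samples, so their values are not independent of each other. Since DCT was chosen for its LP day 7 peak, its ranks are a description and not a test.

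Relative to its mean, DCT varied most between samples where it was low. Its coefficient of variation was 72.6% on SPs and 52.9% on LP day 1, against 26.2% and 30.2% in the later LP groups. Counting error alone would give 16.4%, 16.7%, 3.52%, and 6.76% in the order of time. SP sample 2 had the lowest value of all, 1.69 CPM with a counting interval of 0.550 to 3.95 CPM, and SP sample 5 the highest of its group, with an interval of 18.2 to 28.4 CPM.

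The file headers number the libraries, and these numbers are distinct among the 12 samples numbered 1 to 3 and again among the 11 numbered 4 to 6, but repeat between these sets. What the sets stand for is not given in the sources used here. In samples 1 to 3, DCT ranged over 1.69 to 13.6 CPM on SPs, and over 15.5 to 32.8, 160 to 262, and 54.1 to 85.2 CPM after 1, 7, and 28 days of LPs, with no overlap between groups. In samples 4 to 6, it ranged over 5.83 to 22.9 CPM on SPs, and over 13.2 to 53.9, 191 to 338, and 49.9 to 110.0 CPM on these LP days. That LP day 7 was highest in both sets follows from the pooled values. In the second set, SP overlapped LP day 1 and LP day 1 overlapped LP day 28, as they did over all samples.

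CRY1 encodes a repressor of the circadian clock. Its expression fell into separate ranges, 17.0 to 34.5 CPM in 10 samples and 138 to 406 CPM in 13, and the samples closest to the boundary of 80 CPM were LP day 1 sample 6 (34.5 CPM) and LP day 28 sample 4 (138 CPM). Both states occurred in every group. CRY1 was low in SP samples 1 and 3, in LP day 1 samples 1 and 6, and in samples 1, 3, and 5 of LP days 7 and 28, where all even sample numbers had high CRY1. What sets this alternation was not tested.

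DCT was read within each CRY1 state. With CRY1 low, DCT ranged over 11.7 to 13.6 CPM on SPs, and over 13.2 to 15.5, 160 to 241, and 49.9 to 66.8 CPM after 1, 7, and 28 days of LPs. With CRY1 high, the SP range was 1.69 to 22.9 CPM, and the LP ranges in the same order were 22.2 to 53.9, 191 to 338, and 85.2 to 110.0 CPM. In either state SP and LP day 1 overlapped, and LP day 1 and LP day 28, which overlapped over all samples, did not. Within LP day 1 and within LP day 28, each sample with high CRY1 had more DCT than each sample with low CRY1. On SPs and at LP day 7 the states overlapped. The background was counted over genes. At LP day 1, 5.88% of 15705 genes were higher in every sample with high CRY1 and 6.88% lower in every one, and at LP day 28 these shares were 6.83% and 6.99%. In the direction of DCT, 76 genes (0.484%) were separated at both LP day 1 and LP day 28. Both groups and the direction were picked from DCT's own values, so this share does not say how rare such a separation is. Over all 23 samples, Pearson's r of DCT with CRY1 was -0.0167, and after removal of group means it was 0.288.

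**Figure D2:**
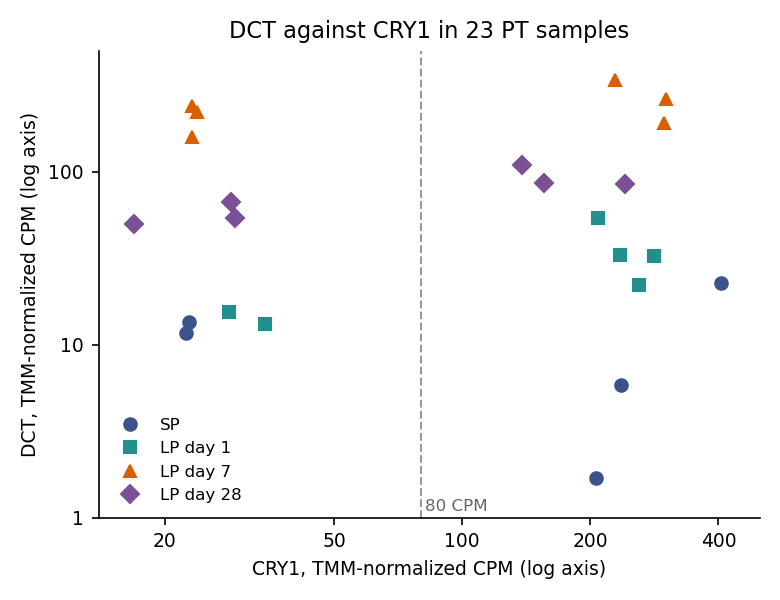
DCT (y axis) against CRY1 (x axis), both in TMM-normalized CPM on log axes, for the 23 PT samples, with a symbol for each photoperiod group and a dashed line at the CRY1 boundary of 80 CPM. On both sides of the line LP day 1 and LP day 28 are separate in DCT, and LP day 1 and SP overlap.

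Other genes of pigment cells were examined for the same course. Lists of melanin enzymes, melanosome genes, and melanocyte signals and transcription factors held 45 genes besides DCT, of which 7 could be matched to an Ensembl identifier: TYRP1, GPNMB, LYST, SLC7A11, SOX10, KIT, and ASIP. TYR, PMEL, MLANA, MITF, and the tautomerase genes MIF and DDT were not matched and were not analysed here. Symbols came from lists of genes that the study had called in some comparison, so the matched genes are not a neutral sample of the pigment genes.

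No matched pigment gene passed the test in any comparison. Between SP and LP day 7, 0 of 6 tested were DE genes by edgeR's quasi-likelihood test (adjusted p below 0.05), against 40 of all 15030 genes (0.266%; 0.193% higher and 0.0732% lower at LP day 7). Their log2 fold changes ran from -0.21 to 0.33, with a median of -0.04 beside -0.01 over all genes, and the lowest adjusted p was 0.534. Between SP and LP day 1 the log2 fold changes of all 7 were positive, from 0.01 to 0.33, with a median of 0.21 beside 0.00 over all genes, and the lowest adjusted p was 1. Likewise 0 of 6 or 7 were DE genes in each of the other 5 comparisons. With DESeq2 the count was also 0 in all 6 comparisons. At an unadjusted p below 0.05 there were 2 of 6 between LP days 7 and 28 (7.13% of all genes), 1 of 6 between LP days 1 and 28 (8.0% of all genes), and 0 in the other 4 comparisons, where the share of all genes was 3.33% to 14.4%.

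The share of all genes called set the background for these counts. It was 0% between SP and LP day 1 (0 of 14920, with 497 at an unadjusted p below 0.05 and 2 by DESeq2) and 0.67% between SP and LP day 28 (0.422% higher and 0.248% lower). Between LP days 1 and 7 it was 0.0201%, all higher at day 7, and between LP days 7 and 28 it was 0.00672%, a single gene that was lower at day 28. Between LP days 1 and 28, 0.216% were called (0.175% higher and 0.0405% lower). The counts over all genes include DCT, of which no test is given. With so few genes called anywhere, a count of 0 among 6 or 7 lies near what the background gives.

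TYRP1, the enzyme of the same family, gave the most direct comparison. On SPs it stood at 9.01, 11.9, 15.3, 16.5, and 18.6 CPM in samples 1 to 5, and on LP day 1 at 20.6, 16.2, 11.9, 14.8, 14.9, and 11.7 CPM in samples 1 to 6. At LP day 7 it was at 15.4, 11.9, 9.93, 13.2, 11.96, and 20.6 CPM, and in the LP day 28 group at 11.1, 32.5, 18.2, 22.9, 17.0, and 18.3 CPM. All 4 groups overlapped. Mean TYRP1 was 14.3 ± 3.83 CPM on SPs (SD, n = 5) and 13.8 ± 3.77 CPM (SD, n = 6) after 7 days of LPs, a log2 fold change of -0.05 (SE 0.22; adjusted p = 0.942, edgeR's quasi-likelihood test). At LP day 28 its mean was 19.99 ± 7.21 CPM, and the log2 fold change from LP day 7 was 0.54 (SE 0.23; adjusted p = 0.649, edgeR). DCT counts per TYRP1 count, which need no scaling between libraries, were 0.143 to 1.29 on SPs, and 0.753 to 3.61, 14.5 to 22.1, and 2.62 to 4.88 after 1, 7, and 28 days of LPs. The ratio separated LP day 7 from all other samples as DCT itself did. Its numerator is DCT, which was chosen for that peak, so this is a description and not independent support.

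Among the regulators, SOX10, a transcription factor of neural crest cells that acts upstream of DCT in melanocytes, averaged 5.00 ± 3.63 CPM on SPs (SD, n = 5) and 6.395 ± 2.57 CPM (SD, n = 6) in the LP day 7 group. Its log2 fold change between LP days 7 and 28 was -1.03 (SE 0.35), the largest of the pigment genes in that comparison, and did not pass the threshold (adjusted p = 0.536, edgeR). SOX10 is also low in counts, with 36 or fewer in any sample. KIT, the receptor through which stem cell factor acts on melanocytes, had means of 7.79, 8.38, 6.72, and 10.04 CPM in the order SP, LP day 1, LP day 7, and LP day 28. The LP day 1 mean of KIT includes 0 counts in the shallow sample 4. ASIP, which encodes the agouti signal that opposes melanocortin action, had means of 22.7, 29.4, 22.0, and 22.5 CPM. Among the melanosome genes, LYST, a regulator of lysosome-related organelles, had means between 63.5 and 79.9 CPM and GPNMB, a glycoprotein of melanosomes, between 15.0 and 17.7 CPM. SLC7A11, the cystine transporter, had 8 or fewer counts in each sample and was tested between SP and LP day 1 only.

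**Figure D3:**
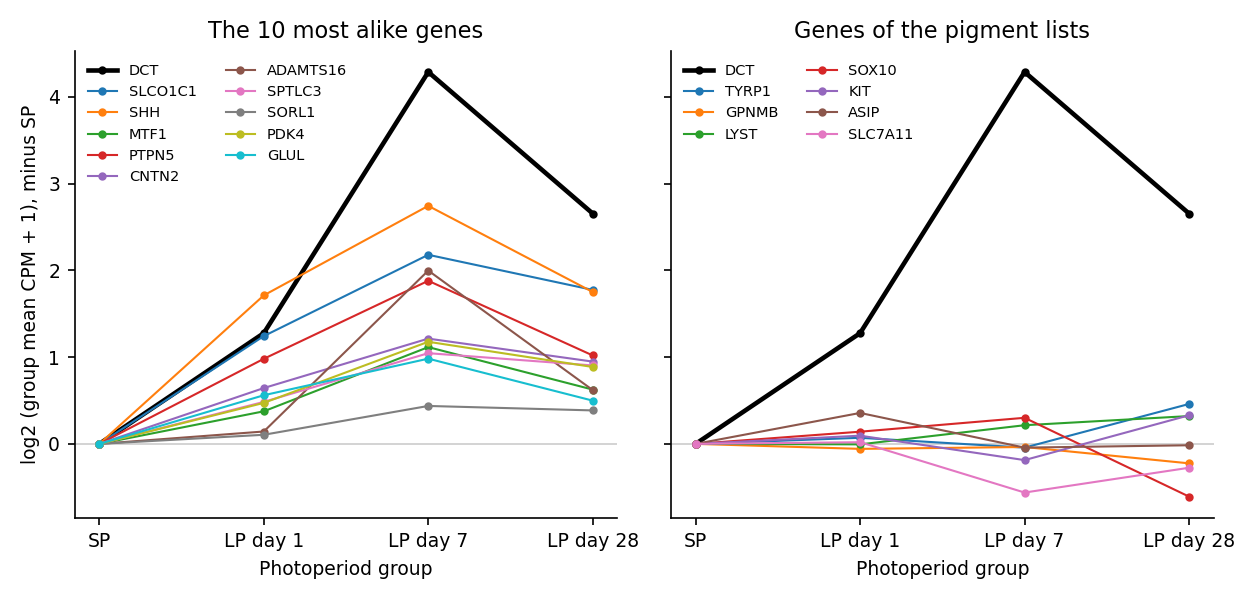
Group means as log2(mean CPM + 1) minus the SP value (y axis) in the 4 photoperiod groups (x axis) for DCT (black), with the 10 genes most like it (left) and the 7 matched pigment genes (right). The like genes were picked for this shape, DCT lies more than 4 log2 units above SP at LP day 7 and above all of them there, and the pigment genes stay within 1 log2 unit of SP.

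Markers of cells that could hold DCT RNA were summed in each sample. For melanocytes, TYRP1, SOX10, and KIT were matched of 9 listed markers, and their sum was 17.8 to 35.0 CPM on SPs, and 14.8 to 40.9, 18.7 to 36.0, and 22.9 to 40.9 CPM in the LP groups in the order of time. These ranges overlapped in all groups. The low of 14.8 CPM at LP day 1 was the shallow sample 4, with 5 counts of TYRP1 and 0 of SOX10 and KIT. For Schwann cells and related glia, SOX10 and NGFR were matched of 6, and the group medians of their sum were 15.6, 21.5, 26.9, and 30.0 CPM in the order of time. The pair went opposite ways between SP and LP day 28, with a log2 fold change of 1.12 (SE 0.18; adjusted p = 0.00592, edgeR) for NGFR, a neurotrophin receptor named after its values were seen, and of -0.71 (SE 0.46; adjusted p = 0.524, edgeR) for SOX10. Markers of tanycytes and ependyma (3 of 5 matched) had a median sum of 1076 CPM on SPs and 1090, 775, and 880 CPM in the LP groups. VIM makes up most of this sum, and the members went opposite ways. Between SP and LP day 7 their log2 fold changes were -0.49 for VIM and -0.20 for CCDC153 against 0.96 for DIO2, and none passed the test. PT thyrotroph markers summed to between 11400 and 13520 CPM on SPs and between 7975 and 11220 CPM at LP day 7. CGA and CHGA make up most of this sum, and the members went opposite ways, with log2 fold changes of -0.27 for CGA and -1.15 for CHGA against 0.74 for TSHB, 3.22 for EYA3, and 1.03 for MTNR1A, of which only CHGA passed the test. Pars distalis markers overlapped in all groups, with median sums of 125200, 64410, 95590, and 177000 CPM in the order of time. PRL makes up most of this sum, and its log2 fold change between LP days 7 and 28 was 1.18 (SE 0.38; adjusted p = 0.506, edgeR). In that comparison POU1F1 (0.36) and LHB (0.17) also went up, and GH1 (-0.38), FSHB (-0.33), and POMC (-0.04) went down. For folliculostellate cells (3 of 4 markers matched) the median sums were 492, 367, 578, and 461 CPM in the order of time. Connective tissue and meninges (4 of 5) had 1462, 1629, 1632, and 1905 CPM. For leukocytes only PTPRC was matched of 4, with medians of 44.5, 23.3, 25.2, and 32.6 CPM. The ranges of each of these overlapped in all groups. Which cells of the samples held the DCT RNA, and whether any of these sums had a part in its course, was not tested. No marker of endothelium, neurons, or erythrocytes was matched.

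Peaks at LP day 7 in every sample were counted over all genes. DCT was chosen for such a peak in these same samples, so its place and rank here are a description only. Of the 15705 genes that were above 1 CPM in 5 or more samples, 6 (0.0382%) had each LP day 7 sample above all other 17 samples, and 0 (0%) had each LP day 7 sample below them. Besides DCT these were ADAMTS16, SHH, PLXNA4, MTF1, and KLF10, which are named after their values were seen. Measured by the LP day 7 mean over the next highest group mean, ADAMTS16 stood at 3.37 and DCT at 3.13, followed by SHH (2.01), PLXNA4 (1.89), MTF1 (1.45), and KLF10 (1.39). ADAMTS16, a secreted metalloproteinase, was the only 1 of the 6 with a higher ratio than DCT, and it was low, at 4.45 to 10.2 CPM at LP day 7 and 0 to 3.08 CPM elsewhere. Its 0 was in LP day 1 sample 4, where the detection limit of 8.90 CPM lay inside its LP day 7 range, and the MTF1 value of that sample rested on 3 counts. By this ratio alone, DCT was number 11 of the 15705 genes. The order of group means SP, LP day 1, LP day 28, LP day 7 occurred in 1111 genes (7.07%), and 5 of the 6 had it. Only 2 genes (0.0127%) had every sample of LP days 7 and 28 above every sample of SP and LP day 1, and DCT was not among them because of LP day 1 sample 5.

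Genes with a course like that of DCT were ranked by Pearson's r of log2(CPM + 1) with DCT over the 23 samples, which share libraries and the group differences for which DCT was chosen. Of 15704 genes, 95% had r between -0.497 and 0.524, and 7 were above 0.8. SLCO1C1, a transporter of thyroid hormones, came first (r = 0.905), followed by SHH, the morphogen sonic hedgehog (0.882), MTF1, a metal-responsive transcription factor (0.855), and PTPN5, a tyrosine phosphatase (0.838). The others of the first 10 with a symbol were CNTN2 (0.803), ADAMTS16 (0.803), SPTLC3 (0.793), SORL1 (0.787), PDK4 (0.777), and GLUL (0.751). SPTLC3 and GLUL are enzymes of sphingolipid and glutamine synthesis, PDK4 a kinase of pyruvate metabolism, CNTN2 an adhesion protein of axons, and SORL1 a sorting receptor. A total of 2 genes without a symbol lay among the first 12.

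SLCO1C1 shared the order of groups with DCT at a smaller scale. It stood at 23.7 to 39.2 CPM on SPs, and at 45.6 to 135.8, 96.9 to 179.5, and 84.8 to 126 CPM after 1, 7, and 28 days of LPs. Its LP day 7 and LP day 28 ranges overlapped, as those of DCT did not. In LP day 1 sample 5, which had the most DCT of its group, SLCO1C1 was also highest, at 135.8 CPM against 62.3 CPM or less in the other 5. SHH ranged over 8.37 to 17.8 CPM on SPs, and over 18.3 to 62.3, 65.5 to 105, and 22.3 to 55.8 CPM on these LP days. Unlike DCT, SHH at LP day 1 was above every SP sample. PTPN5, with means of 25.9, 52.0, 97.9, and 53.5 CPM in the order of time, was at nearly the same mean at LP day 28 as at LP day 1.

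At the other end, the lowest r among genes with a symbol belonged to MYH15 (-0.712), AGER (-0.706), RPS16 (-0.694), PBR (-0.684), and MT3 (-0.682). CHGA, the marker of PT thyrotrophs on SPs, had r = -0.664. Of the genes known for their response to photoperiod in the PT, VMO1 had r = 0.661, EYA3 0.413, TSHB 0.362, MTNR1A 0.139, and CGA -0.297. TYRP1 (0.153) and SOX10 (0.183) lay well inside the range that holds 95% of genes.

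DCT was also set beside lists of photoperiod and clock genes. Of 7 matched photoperiod genes, edgeR's quasi-likelihood test called 2 higher and 1 lower between SP and LP day 7 (0.266% of all genes), 3 higher and 1 lower between SP and LP day 28 (0.67%), 1 higher between LP days 1 and 7 (0.0201%), and 2 higher and 1 lower between LP days 1 and 28 (0.216%). The list was drawn up with the study's results known. EYA3, a transcription coactivator induced by LPs, varied widely at LP day 7, with a mean of 299 ± 364 CPM (SD, n = 6), whereas DCT in the same 6 samples had an SD of 61.8 CPM about its mean of 236 CPM. A single library carried much of the EYA3 value, sample 1 at 969 CPM, and without it, a choice made after seeing the data, the mean was 165 ± 176 CPM (SD, n = 5). Of 12 matched clock genes, 1 was called higher between SP and LP day 7 (0.266% of all genes), 1 higher and 1 lower between SP and LP day 28 (0.67%), and 1 higher between LP days 1 and 28 (0.216%). The gene called higher in all 3 was ARNTL2, a partner of CLOCK named here after its values were seen, with means of 0.281, 0.547, 4.23, and 7.41 CPM in the order of time. ARNTL2 thus had its highest mean at LP day 28, where DCT had come down.

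Likeness within groups was measured after each group's mean was removed, so that it does not use the course for which DCT was chosen. No gene had an r above 0.8, and 95% of genes had r between -0.399 and 0.403. The first genes with a symbol were TTLL5 (0.631), NOS1 (0.63), SLC35F6 (0.609), SOX2OT_exon3 (0.608), CHD1L (0.583), FN1 (0.573), SLC6A12 (0.572), SLCO1C1 (0.568), SHH (0.563), and MTF1 (0.548), with 42 genes without a symbol among the first 52. SLCO1C1, SHH, and MTF1 were also among the first 10 over all samples. CALCA had the lowest r of all genes (-0.777), followed among genes with a symbol by SNORD97, MFI2, ALDH1A1, and C14orf39.

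This within-group ranking rested in large part on SP sample 2, which deviated by -1.83 from the SP mean of DCT on the log2 scale. Without that sample, an alternative chosen after seeing the data, 3 of the 10 genes stayed among the first 10. MTF1 went from 0.548 to 0.105 and SLC35F6 from 0.609 to 0.215, whereas SHH went from 0.563 to 0.662 and SLCO1C1 from 0.568 to 0.642. CRY1 went from 0.288 to 0.507 and EYA3 from -0.303 to -0.464. TYRP1 had r = 0.365 with all samples and 0.363 without SP sample 2.

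**Figure D4:**
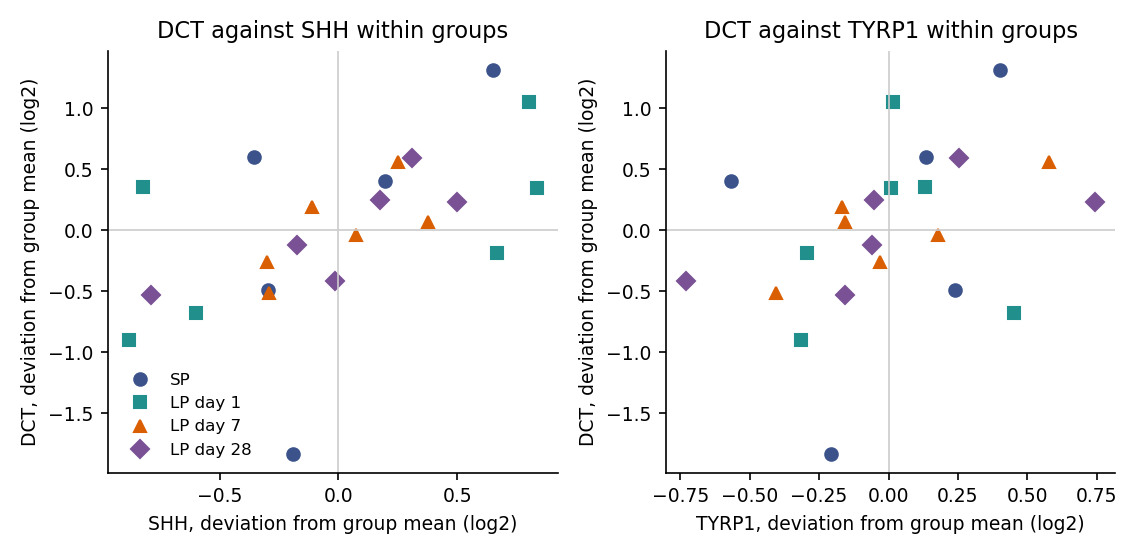
Deviation of DCT from its group mean on the log2(CPM + 1) scale (y axes) against that of SHH (left x axis) and TYRP1 (right x axis) in the 23 PT samples, with a symbol for each photoperiod group. The lowest point in both panels is SP sample 2, at -1.83 for DCT, and r within groups is 0.563 for SHH and 0.365 for TYRP1.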

How the data were processed

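RNA-seq of 23 PT samples was used, 5 on SPs and 6 at each of LP days 1, 7, and 28, grouped by the sample labels. The authors deposited raw counts for each Ensembl sheep gene. The submitters' processing notes name Bowtie, HTSeq, and the build Oar_v3.1, while the file headers resemble featureCounts output from TopHat alignments, so the counting program is uncertain. No row without a gene name was present, and the kit's strandedness is not given in the sources used here.

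Each pair of groups was normalized by TMM, genes were kept if over 1 CPM in a number of samples equal to the smaller group, and DE genes were called by edgeR 4.0.16's quasi-likelihood test in R 4.3.3 at a Benjamini-Hochberg FDR under 0.05. SE is the absolute log2 fold change over the square root of F. CPM values were TMM normalized over the 23 samples. Likeness used log2(CPM + 1) over genes above 1 CPM in 5 or more samples. Gene lengths were not used, so ratios and sums over different genes serve to compare samples, not to give the relative amounts of those genes. Python 3.11.15 and SciPy 1.17.1 gave exact Poisson intervals (95%) of DCT counts. Since reads carried no molecular identifiers, intervals and the 3-count limit cover counting error only. The scripts were tested on simulated data.

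The gene and the lists were chosen with earlier results of these data known. Named genes are DCT, CRY1, 8 pigment genes where matched, pigment list members that were DE genes, the photoperiod list, and the 10 highest and 5 lowest genes with a symbol by r. Members of lists or overlaps named outside this rule were chosen after their values were seen. Symbols (1259 genes, with 29 symbols on more than 1 identifier) came from the study's supplementary lists of DE genes. P-values set the difference between groups against the spread between samples of a group. The sample titles do not say whether each sample came from a separate animal. Sample numbers did not pair the samples (correlations of deviations from -0.185 to 0.279). Alternatives were DESeq2 1.42.0, RLE size factors, no filter, a replicate block, SP samples 2, 3, and 5 alone, LP day 1 samples 3 and 4 summed, other scalings and correlations, and each sample left out.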

Additional observations from a re-analysis of the deposited data

Results flagged for a closer look

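A sample was set apart where its gap to the nearest of its group was large for the group's range (Dixon's test at the 95% level). Over 42 genes and 168 groups, 10 values met this, where chance gives about 1 in 20 groups, and DCT was not among them. Highest in their groups were ALDH1A1 in LP day 1 sample 2 (628 CPM), ASIP in LP day 7 sample 5 (35.6 CPM), CALCA in SP sample 2 (12.9 CPM), CHD1L in LP day 1 sample 5 (67.7 CPM), and EYA3 in LP day 7 sample 1 (969 CPM). NOS1 in LP day 7 sample 3 (5.41 CPM), SLCO1C1 in LP day 1 sample 5 (135.8 CPM), SNORD97 in SP sample 2 (2.03 CPM), and SORL1 in LP day 28 sample 2 (265.9 CPM) were also highest, and AGER in LP day 28 sample 5 (6.29 CPM) was lowest. CALCA and SNORD97, the genes with the lowest r with DCT within groups among those with a symbol, both stood out in SP sample 2, the sample with the least DCT. They were picked by an r that rests in large part on that sample, so this follows in part from the choice. The rate of 1 in 20 need not hold for genes picked by their values.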

How the results depend on the processing

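All 99 alternative values of the DCT log2 fold change kept the direction, and all 35 alternative DCT means moved by less than 1 SD. With each sample left out in turn, the log2 fold change was 0.97 to 1.74 between SP and LP day 1, 4.11 to 4.79 between SP and LP day 7, 2.47 to 3.15 between SP and LP day 28, 2.92 to 3.43 between LP days 1 and 7, -1.78 to -1.51 between LP days 7 and 28, and 1.28 to 1.78 between LP days 1 and 28. No pigment gene was a DE gene in any of 99 alternatives. Counts of all DE genes depended on the processing, in the order SP to LP day 1, 7, and 28, LP day 1 to 7, LP day 7 to 28, and LP day 1 to 28. DESeq2 called 2, 357, 346, 14, 36, and 63. With 1 sample left out, the lowest and highest counts were 0 and 4, 7 and 113, 41 and 110, 1 and 6, 1 and 5, and 19 and 58. The highest for SP to LP day 7 came without LP day 7 sample 6 and the lowest without SP sample 4, and the lowest for SP to LP day 28 came without SP sample 2. With the replicate block, 178 were called for SP to LP day 7, 41 for SP to LP day 28, and 6 for LP day 7 to 28. The labels state no pairing by sample number, and deviations of samples of the same number correlated weakly (-0.185 to 0.279). SP samples 2, 3, and 5 alone gave 6 at LP day 7 and 48 at LP day 28. Summing LP day 1 samples 3 and 4 gave 1 for LP day 1 to 7, and no filter gave 8 for LP day 7 to 28. The cause was not tested. The sign of near-zero changes turned in places. TYRP1 between SP and LP day 1 was -0.0244 with SP samples 2, 3, and 5 and -0.0495 to 0.20 with each sample left out, and SOX10 between SP and LP day 7 was -0.13 with those SP samples. With each sample left out, the change between SP and LP day 7 was -0.21 to 0.0514 for TYRP1, -0.27 to 0.20 for GPNMB, and -0.24 to 0.0764 for ASIP, and ASIP between LP days 7 and 28 was -0.0420 to 0.22. Of the 10 genes most like DCT within groups, 5 remained by Spearman's rank correlation and 3 without SP sample 2. Over all samples, 7 to 10 remained. The shallow LP day 1 sample 4 limits values under 8.90 CPM.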
